A study of Vitis vinifera with 36 samples.

Results

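The 30 genes described here are probes of a grapevine microarray whose annotation names sucrose, invertase or fructofuranosidase, starch or amylase, hexose or sugar transporters, trehalose, galactinol, raffinose, or a hexokinase or fructokinase. They were found by their annotation text among 4118 annotated probes of the lists that accompany the study, on an array of 26688 probes. Each is measured by 1 probe. In all, 11 are transporters, and 7 cleave or make sucrose or are annotated as invertase/pectin methylesterase inhibitors. Of the others, 4 belong to trehalose or raffinose synthesis, 2 to starch, and 6 are phosphofructokinases, enzymes of glycolysis that match because their name contains fructokinase. No hexokinase is among the 30 genes, but some of the lists were at hand only in part.

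Most of the genes were thus chosen by measured values, the differences between varieties at S1, S2 or S3 that had made the lists. Each gene was therefore tested only on arrays that such a list had not used for it. Of the 30 genes, 19 come from a list of genes that differed between Red Globe and Thompson Seedless at pea size, from a part of it that holds only genes higher in Red Globe. A further 7 and 5 stand in lists of genes that differed between seeded and seedless varieties at pre-bloom and at post-bloom, 4 are in more than 1 list, and 2 phosphofructokinases come only from the list of all measured genes. The list of all measured genes and the pea-size list of RG against TS were at hand only in part. That of seeded against seedless varieties at pea size and at veraison was at hand only in its first lines. Genes with the same annotation outside the parts at hand were not analysed here.

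RNA came from ovules and seeds of field-grown vines without hormone treatment. Red Globe (RG) and Italia (IT) are seeded varieties, and Thompson Seedless (TS) is stenospermocarpic, that is, its seeds begin to form after fertilisation and then abort. The stages were S1 (pre-bloom), S2 (post-bloom), S3 (pea size) and S4 (veraison, the onset of ripening), with 3 arrays for each variety and stage, 36 in all. Ovules of many flowers were pooled in a tube, and being seeded or seedless cannot be told apart from other differences between the varieties. The study calls the replicates biological but does not say whether they came from separate vines, so the p-values measure the spread between these samples only.

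Seeds are fed with sucrose that arrives in the phloem of the maternal tissue. Sucrose is moved across membranes by proton-coupled sucrose transporters, or cleaved by invertases into glucose and fructose, which hexose transporters take up. Sucrose synthase cleaves it reversibly into fructose and a nucleotide sugar used for cell walls and starch. Invertase inhibitors hold the enzyme back, and proteins of the same family inhibit pectin methylesterases of the cell wall. Galactinol and raffinose synthases make oligosaccharides that seeds store before they dry, and trehalose 6-phosphate, made and removed by a synthase and a phosphatase, is known as a signal of sucrose supply.

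Values are log2 signals relative to the 75th percentile of the same array, called scaled signal, so that 0 is the level of that percentile. They compare samples for a gene, not genes with each other. The 75th percentile of the processed signal lay between 100.4 and 1359, and 38.7% to 90.1% of probes stood well above background on an array. Both low ends were those of the third S1 array of IT. Dim genes such as the ERD6-like 16 transporter g02260 read higher on it (-2.98) than on its replicates (-7.20 and -6.07). All 30 genes passed the filter on dim probes, and 18 of them were well above background on all 36 arrays. The fewest were 14 arrays, for an ERD6-like transporter. Italia was hybridised on 5 slides of its own and RG and TS shared 7 others, so that differences between IT and TS cannot be told apart from differences between slides.

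Of the 5 ovule and seed markers chosen, late embryogenesis abundant 5 was not among the probes kept and has no values here. Of the others, VviAGL11, a MADS-box gene of seed development, was well above background on 12 of 12 arrays of each variety. The markers inner no outer, leafy cotyledon1-like and 11S globulin isoform 3 were so on 9, 11 and 12 arrays in RG and on 8, 9 and 8 in IT, against 9, 12 and 12 in TS. The summed scaled signal of these 4 seed markers at S4 was 5.79 to 6.19 in RG and 6.24 to 9.09 in IT, against 0.78 to 2.65 in TS, on the log2 scale. That of 5 markers of green tissue, 4 light-harvesting proteins and the small subunit of Rubisco, was 3.61 to 4.95 in RG, 2.12 to 2.66 in IT and 5.53 to 6.08 in TS at the same stage. The sums of both lists did not overlap between RG and TS at S4, but single markers did not all follow them. Of the seed markers only VviAGL11 was higher in RG at S4, with a mean of 5.99 in RG and 1.83 in TS, while inner no outer (-7.20 in RG and -6.62 in TS), leafy cotyledon1-like (-5.78 and -2.80) and the globulin (-4.21 and -4.04) had lower means in RG. The sums of RG and TS thus followed VviAGL11. The study reports that TS carries a mutated allele of this gene and that its expression depends on the alleles. Its low level in TS therefore cannot be told apart from an effect of the allele. In IT the globulin lay between -1.21 and 8.97 on single S4 arrays and set the upper end of the seed sum, not the lower. Where the globulin was lowest, most of the sum came from VviAGL11, which reached 6.23 in IT. The 4 light-harvesting genes had lower means in RG than in TS, and Rubisco had 3.42 in RG and 3.09 in TS. The part of these markers in the results below was not tested. In whole ovules and seeds, fewer cells of a type and less RNA per cell cannot be told apart.

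**Figure D1:**
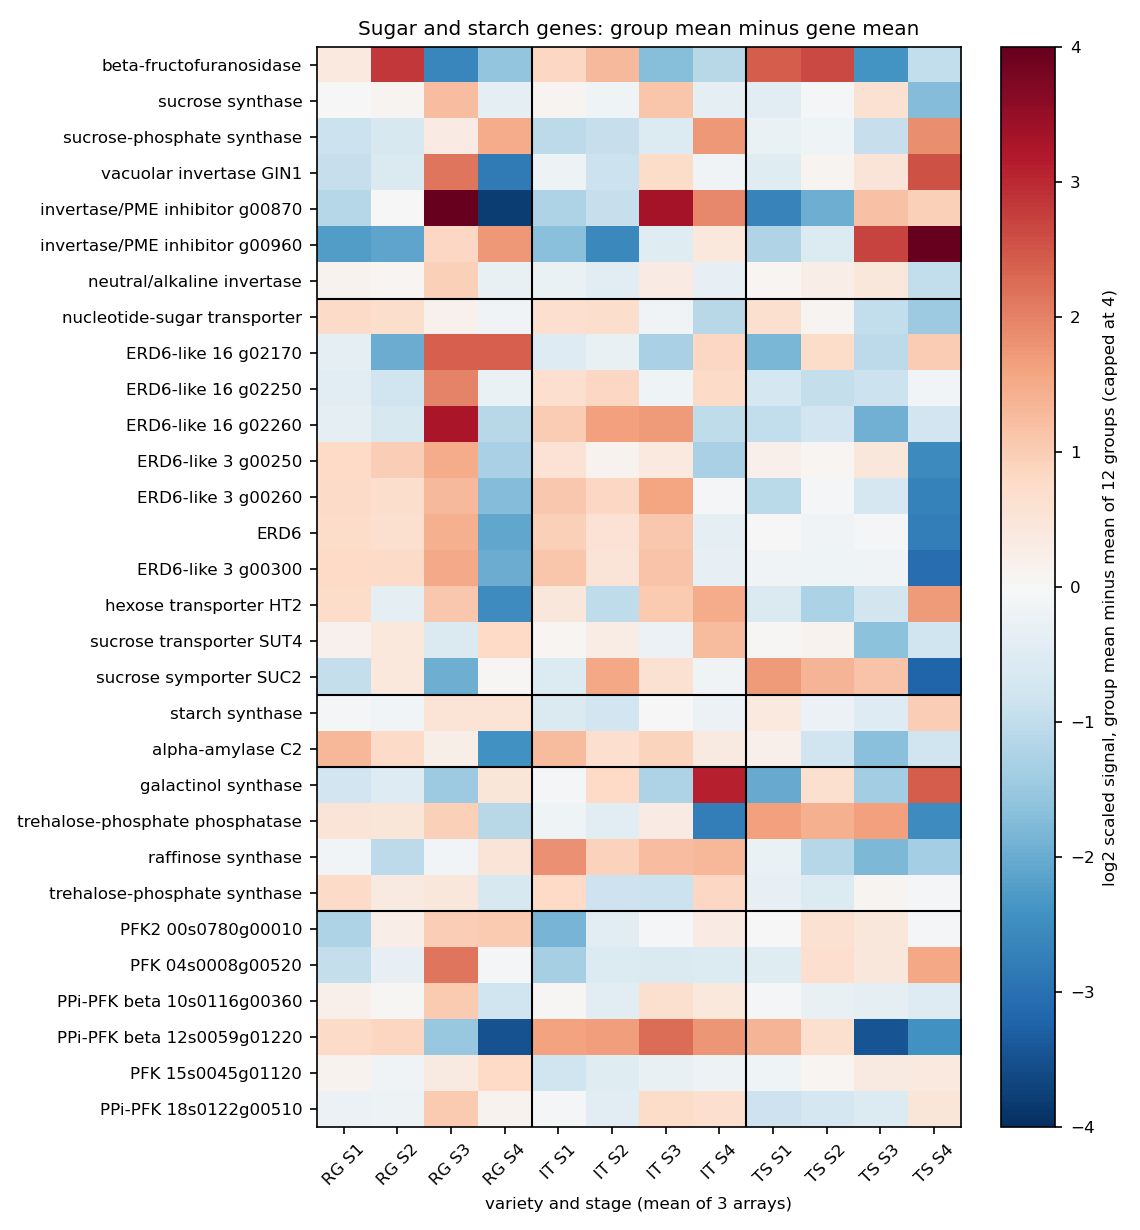
Mean scaled signal of the 30 genes in each variety and stage, as the log2 difference from the gene's mean over the 12 groups (3 arrays each; red is higher, blue lower, capped at 4); black lines separate varieties and gene classes. The 4 ERD6-related genes of the g00250 to g00300 series are lowest at S4 in all 3 varieties, and GIN1 and both inhibitors are lower in RG S4 than in TS S4.

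At veraison, RG seeds differed from TS seed traces in 15 of the 30 genes, 8 higher and 7 lower in RG. The genes higher in RG were the sucrose transporters SUC2 and SUT4, sucrose synthase, trehalose-phosphate phosphatase, a nucleotide-sugar transporter, a pair of ERD6-like 3 transporters and a phosphofructokinase, between 2.09-fold and 9.55-fold. Those lower in RG were vacuolar invertase GIN1, both invertase/pectin methylesterase inhibitors, hexose transporter HT2, galactinol synthase, alpha-amylase and a phosphofructokinase, between 3.05-fold and 41.8-fold. These folds are fitted values, and the inhibitor g00870 stood well above background on no RG array at S4. Over all 23068 probes tested, 16.9% were called (6.93% higher and 9.96% lower). A call required a limma p below 0.05 after Benjamini-Hochberg adjustment across those probes and more than a 2-fold change. All but 2 of the genes had been listed because they differed between varieties at another stage, so nothing about sugar genes as a class is read from this share. The median difference of the 30 genes was -0.20, against -0.047 over all probes.

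RG and TS arrays of S4 lay pairwise on 3 shared slides, and on each of them all 15 genes differed in the same direction as in the fit. With the shared slide, which is also the replicate number, as a block, 11 of the 15 calls held. The exceptions were PFK2 (adjusted p = 0.053), alpha-amylase (0.054), ERD6-like 3 g00250 (0.061) and ERD6-like 3 g00300 (0.12). Like all fits here with a slide or replicate number as a fixed block, this one used the arrays of the compared groups alone. Those arrays gave 6 calls without the block, so a lost call cannot be put down to the block itself. Leaving out 1 array ended the call of 6 of the 15, as given with those genes below. Without scaling between arrays 1 gene was called higher (SUC2) and 4 lower (GIN1, both inhibitors and HT2). With normexp background correction these calls were joined by SUT4 and sucrose synthase, higher, and the phosphofructokinase PFK 04s0008g00520, lower. The other 7 calls were lost with normexp, at 0.36 for trehalose-phosphate phosphatase, 0.44 for ERD6-like 3 g00300, 0.77 for g00250, 0.91 for PFK2, 0.98 for the nucleotide-sugar transporter, -0.86 for alpha-amylase and -0.87 for galactinol synthase.

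**Figure D2:**
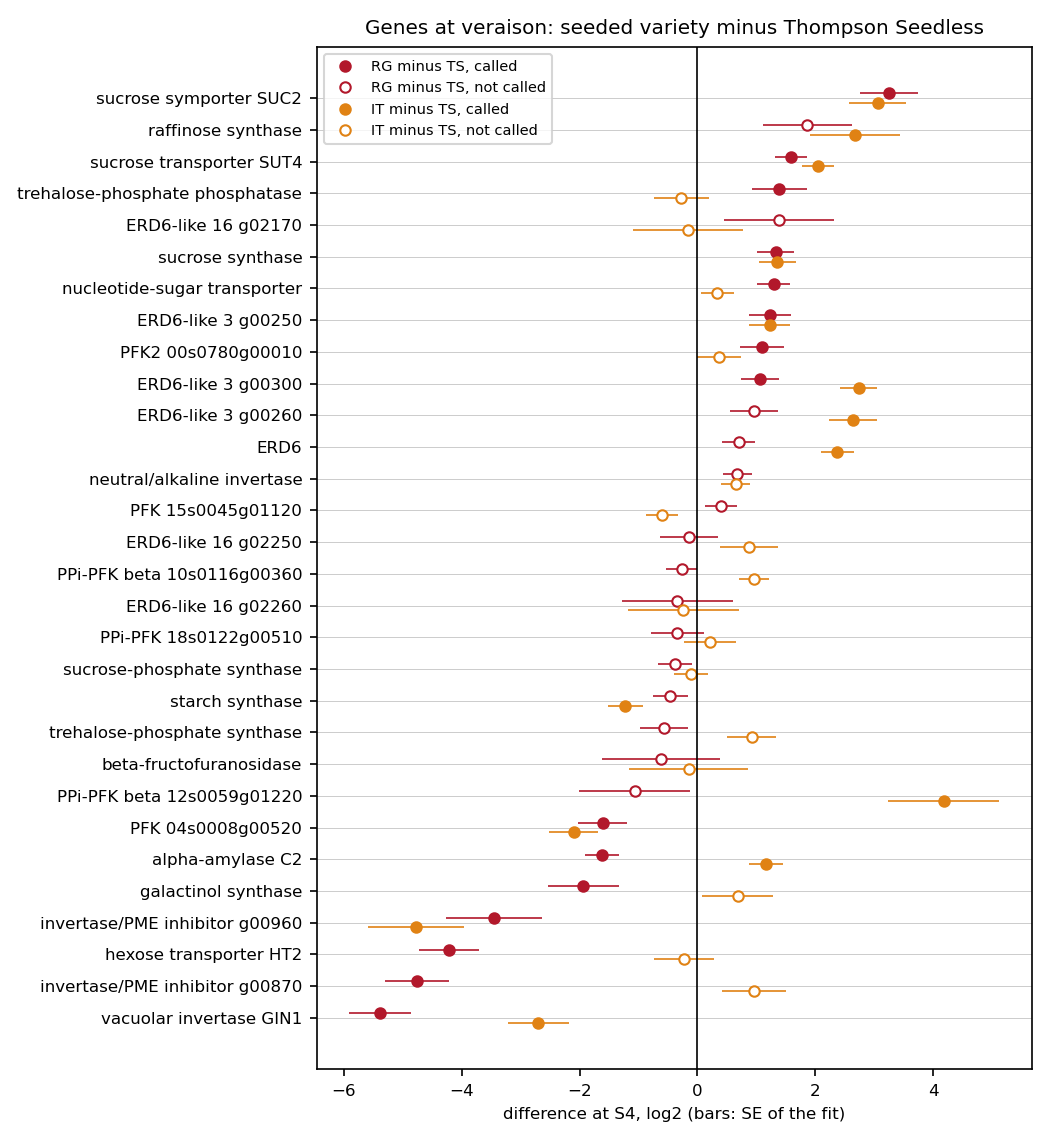
Difference at S4 between a seeded variety and TS for each of the 30 genes (log2; points are limma estimates from 3 arrays per group, bars their SE; filled points were called). RG minus TS runs between -5.39 for GIN1 and 3.26 for SUC2; HT2 and the inhibitor g00870 stand far below 0 in RG and near 0 or above it in IT.

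Italia seeds at the same stage differed from TS in 14 of the 30 genes, 10 higher and 4 lower, against 29.2% of all probes (15.9% higher and 13.3% lower). Higher in IT were SUC2, SUT4, sucrose synthase, the 4 ERD6-related genes of the g00250 to g00300 series, raffinose synthase, alpha-amylase and a pyrophosphate-dependent phosphofructokinase. Lower in IT were the inhibitor g00960, GIN1, a phosphofructokinase and starch synthase. The median difference was 0.67, against 0.16 over all probes, and both comparisons use the same TS arrays. With normexp 5 genes were called higher and 4 lower, and the calls lost were alpha-amylase (0.89), raffinose synthase (0.60), g00250 (0.58), g00260 (0.93) and ERD6 g00280 (0.98).

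Between post-bloom and veraison, 11 of 25 testable genes changed in RG (2 higher and 9 lower at S4), 9 in IT (5 higher and 4 lower) and 15 in TS (6 higher and 9 lower). Over all probes 30.0% were called in RG (13.1% higher and 16.9% lower), 29.8% in IT (12.9% and 16.9%) and 25.9% in TS (11.9% and 13.9%). Sucrose-phosphate synthase rose in each of the 3 varieties, and the ERD6-like 3 gene g00250 fell in each. HT2 and the inhibitor g00870 rose in IT and TS and fell in RG. The median change of the 25 genes was -0.51 in RG, 0.26 in IT and -0.20 in TS, against 0.013, -0.031 and 0.15 over all probes. Without scaling the split was 2 higher and 5 lower in IT, and 0 higher and 10 lower in TS, where that setting moves the median of all probes to -1.08. With normexp 5 calls in TS were lost, those of PPi-PFK beta 12s0059g01220 (-1.0, adjusted p = 0.087), PPi-PFK 18s0122g00510 (0.89), beta-fructofuranosidase (-0.89), g00260 (-0.93) and galactinol synthase (0.91), 1 in RG (the inhibitor g00870) and 2 in IT (g02260 and trehalose-phosphate synthase).

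The difference between these changes in RG and in TS, RG minus TS, was itself tested, and 6 of 25 genes passed, against 10.6% of all probes (4.7% above 0 and 5.91% below). The difference was above 0 for SUC2, ERD6-like 16 g02170 and SUT4, and below 0 for the inhibitor g00870, HT2 and alpha-amylase. With the slide as a block g02170 (adjusted p = 0.12) and SUT4 (0.18) were not called, and without scaling alpha-amylase (0.28) and SUT4 (0.43) were not. GIN1, the inhibitor g00960, the neutral/alkaline invertase, trehalose-phosphate phosphatase and the phosphofructokinase PFK 04s0008g00520 were not testable here, since post-bloom arrays had put them in a list.

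**Figure D3:**
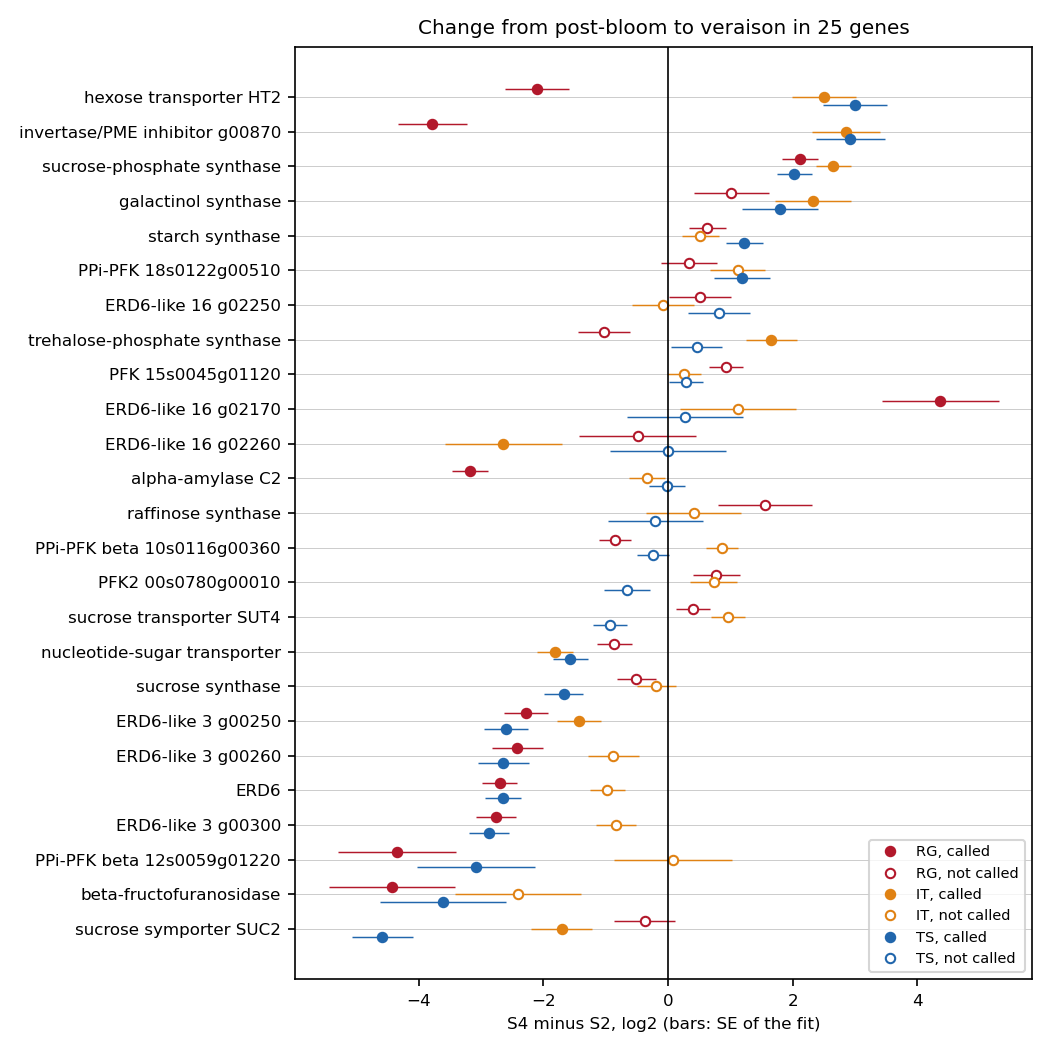
Change between S2 and S4 in RG, IT and TS for the 25 genes testable in it (log2, S4 minus S2; limma estimates from 3 arrays per group with SE; filled points were called). HT2, the inhibitor g00870 and alpha-amylase lie on the left in RG and to the right of it in TS, while SUC2 lies furthest left in TS.

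At the early stages few genes differed. At S1, 2 of 23 testable genes were higher in RG than in TS, against 5.61% of all probes (2.74% higher and 2.87% lower), namely alpha-amylase and ERD6-like 3 g00260. At S2, 2 of 25 were higher, against 4.96% of all probes (1.94% higher and 3.02% lower), namely alpha-amylase and the inhibitor g00870. With the replicate number as a block, 0 of 23 were called at S1 and 1 of 25 at S2 (alpha-amylase), and with the slide as a block 0 at either stage. Quantile normalization gave 1 higher and 1 lower at S2. Between S1 and S2, of 18 testable genes limma called 0 in RG, 1 in IT (PFK2) and 0 in TS, against 0.815% (0.629% higher and 0.186% lower), 8.51% (4.25% and 4.26%) and 3.37% (2.71% and 0.655%) of all probes. At an unadjusted p below 0.05 the number was 1 in RG and 4 in TS, and the methods' t-test with a 2-fold change called 0 in both.

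In Italia, none of the 30 genes was taken from a list made with its pea-size arrays, of which only the first lines were at hand, and 5 of 25 genes changed between S2 and S3 (4 higher and 1 lower at S3), against 8.91% of all probes (3.91% higher and 5.0% lower), and without the second S3 array 1 was called, without the first 2. Between S3 and S4, 11 of 30 changed (4 higher and 7 lower at S4), against 24.7% of all probes (10.4% higher and 14.3% lower). Without scaling the split was 1 higher and 0 lower at S3, and 1 higher and 8 lower at S4. With the percentile taken over probes well above background it was 4 higher and 2 lower at S3, and with normexp 3 higher and 0 lower. The medians were 0.33 and -0.23, against -0.056 and 0.097 over all probes. Of the 30 genes, 13 had their highest mean at S3 in IT and 7 in TS. In RG 16 did. The pea-size list had picked its genes by a contrast of the S3 arrays of both RG and TS. That choice favoured a high S3 mean in RG and a low one in TS, and so helped to set both counts. The same counts are not given for all probes, so nothing is read from how the varieties differ in them.

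GIN1, a vacuolar invertase (GSVIVT01018625001, VIT_16s0022g00670), cleaves the sucrose stored in the vacuole. GIN1 averaged -3.28, -2.96, -0.23 and -5.20 in RG, -2.59, -3.24, -1.64 and -2.52 in IT, against -2.85, -2.28, -1.85 and 0.18 in TS from S1 to S4 (SD 0.20 to 1.09, n = 3 arrays each). At S4 its arrays read -6.30, -5.18 and -4.13 in RG and -2.70, -3.31 and -1.53 in IT, against 0.24, 0.74 and -0.44 in TS. All 3 TS arrays were above every RG and IT array, and no other group of GIN1 averaged above 0. In RG 2 of the 3 S4 arrays stood well above background. The difference at S4 was -5.39 (SE 0.52, adjusted p = 1.52e-08) for RG minus TS and -2.70 (SE 0.52, adjusted p = 0.00023) for IT minus TS. On the shared slides RG minus TS was -3.69 to -6.54. At S3, where the list had chosen the gene, RG stood 1.62 above TS.

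The invertase/pectin methylesterase inhibitor g00870 (GSVIVT01018604001, VIT_16s0022g00870) has a V1 identifier close to that of GIN1. Inhibitor g00870 averaged -4.02, -2.88, 1.45 and -6.66 in RG, -4.09, -3.80, 0.47 and -0.94 in IT, against -5.53, -4.83, -1.70 and -1.90 in TS from S1 to S4 (SD 0.055 to 1.28, n = 3 arrays each). At S4 it read -7.52, -6.96 and -5.50 in RG and -1.14, -0.92 and -0.76 in IT, against -2.0, -1.55 and -2.16 in TS. The RG arrays were the lowest by far, and none of the 3 stood well above background. RG minus TS was -4.76 (SE 0.55, adjusted p = 3.18e-07), at least 16.5-fold lower in RG when dim arrays are set to the lowest signal that is well above background, as in all such bounds here. IT minus TS was 0.96 (adjusted p = 0.174), which did not pass.

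Between S2 and S4 this inhibitor fell in RG by at least 8.37-fold (fitted change -3.78, SE 0.55, adjusted p = 3.36e-06). It rose in IT by 2.86 (SE 0.55, adjusted p = 0.000165) and in TS by 2.92 (SE 0.55, adjusted p = 0.000157). At S2 the arrays had read -2.50, -2.44 and -3.69 in RG and -4.12, -3.29 and -4.0 in IT, against -5.07, -5.62 and -3.78 in TS. The RG change was thus opposite in direction to both others, and the difference between RG and TS in that change was -6.71 (SE 0.78, adjusted p = 1.4e-06), or at least 5.99 below 0 with RG at S4 set to its bound. With normexp the change in RG was -0.97, just inside the limit of 1.

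In IT the rise of g00870 lay before pea size. It read 0.74, 0.55 and 0.11 at S3, above every S2 array, and the change from S2 was 4.27 (SE 0.55, adjusted p = 1.71e-05). At S3 the RG arrays read 1.67, 1.74 and 0.94 and the TS arrays -1.75, -1.65 and -1.70, which did not overlap, 3.15 higher in RG. This contrast chose many of the genes, so the value is given as a description. At S2 the difference of 1.95 (SE 0.55, adjusted p = 0.033) lost its call with quantile normalization (adjusted p = 0.059), with normexp (0.10), with the replicate number as a block (0.16) and without the first or second array of RG or of TS (0.12 to 0.20).

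A related inhibitor, g00960 (GSVIVT01018598001, VIT_16s0022g00960), ran differently. Inhibitor g00960 averaged 0.11, 0.25, 3.18 and 4.08 in RG, 0.69, -0.22, 1.87 and 2.77 in IT, against 1.16, 1.81, 5.08 and 7.54 in TS from S1 to S4 (SD 0.088 to 2.56, n = 3 arrays each). The S4 arrays read 4.82, 5.02 and 2.42 in RG and 2.31, 2.15 and 3.84 in IT, against 8.39, 7.81 and 6.42 in TS. The TS arrays were all above the others, and the third array of RG and of TS was the lowest of its group. RG minus TS was -3.46 (SE 0.82, adjusted p = 0.00277) and IT minus TS -4.77 (SE 0.82, adjusted p = 5.65e-05). Its mean was highest at S4 in each variety.

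The neutral/alkaline invertase (GSVIVT01034488001, VIT_18s0072g01040), an invertase of the cytosol and organelles, varied less. Neutral/alkaline invertase averaged 0.36, 0.31, 1.17 and -0.067 in RG, -0.033, -0.19, 0.55 and -0.10 in IT, against 0.32, 0.48, 0.68 and -0.75 in TS from S1 to S4 (SD 0.06 to 0.46, n = 3 arrays each). At S4, RG minus TS was 0.68 (adjusted p = 0.0456) and IT minus TS 0.65 (adjusted p = 0.0385), both inside the 2-fold limit.

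The gene annotated as beta-fructofuranosidase (GSVIVT01033873001, VIT_08s0007g03060), another name for invertase, was detected mainly in the ovule stages. It was well above background on 0 of the 18 arrays of S3 and S4 and on 15 of the 18 arrays of S1 and S2. Beta-fructofuranosidase averaged -5.60, -3.14, -8.59 and -7.57 in RG, -5.16, -4.69, -7.70 and -7.10 in IT, against -3.57, -3.35, -8.38 and -6.96 in TS from S1 to S4 (SD 0.091 to 2.42, n = 3 arrays each). In RG it read -7.75, -7.94 and -7.03 at S4, against -1.71, -1.78 and -5.94 at S2. In TS it read -6.85, -7.0 and -7.02 at S4, against -2.46, -2.02 and -5.56 at S2. The third S2 array was far below the other 2 in RG and TS, and still above the S4 arrays. Between S2 and S4 it fell by at least 7.96-fold in RG (adjusted p = 0.000989) and 6.91-fold in TS (adjusted p = 0.00727). With the replicate number as a block the call in RG was lost (adjusted p = 0.061), and without the second S2 array that in TS (-2.94, adjusted p = 0.055). With normexp, whose offset narrows differences of dim probes, the change in TS was -0.89 (adjusted p = 0.068) and not called.

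Sucrose synthase (GSVIVT01015018001, VIT_11s0016g00470) was among the genes with a scaled signal above 0 in all groups. Sucrose synthase averaged 4.01, 4.12, 5.25 and 3.61 in RG, 4.12, 3.83, 5.11 and 3.64 in IT, against 3.57, 3.95, 4.63 and 2.28 in TS from S1 to S4 (SD 0.17 to 0.76, n = 3 arrays each). In IT it read 4.84, 5.48 and 5.0 at S3, against 4.0, 3.58 and 3.89 at S2 and 3.48, 3.52 and 3.90 at S4. The S3 arrays were above those of both other stages, by 1.28 over S2 (SE 0.32, adjusted p = 0.0092), while S4 minus S3 was -1.47 (SE 0.32, adjusted p = 0.000668). The excess over S2 was not called without the second S3 array (1.09, adjusted p = 0.073). At S4 it exceeded the TS level by 1.33 (SE 0.32, adjusted p = 0.00283) in RG and by 1.36 (SE 0.32, adjusted p = 0.00155) in IT. In TS it fell between S2 and S4, with a change of -1.68 (SE 0.32, adjusted p = 0.000161). In RG that change was -0.51 and in IT -0.19, neither called.

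Sucrose-phosphate synthase (GSVIVT01012825001, VIT_11s0118g00200), which makes the precursor of sucrose, rose late in all 3 varieties. Sucrose-phosphate synthase averaged -0.29, -0.087, 0.88 and 2.03 in RG, -0.50, -0.35, -0.0026 and 2.30 in IT, against 0.29, 0.39, -0.36 and 2.41 in TS from S1 to S4 (SD 0.016 to 0.78, n = 3 arrays each). At S4 it read 1.97, 2.26 and 1.87 in RG and 2.31, 2.28 and 2.31 in IT, against 3.02, 2.69 and 1.53 in TS. At S2 it had read -0.057, -0.12 and -0.089 in RG and -0.32, -0.26 and -0.48 in IT, against 0.71, 0.34 and 0.11 in TS. Every S4 array was above every S2 array. The change was 2.12 (SE 0.29, adjusted p = 1.06e-06) in RG, 2.65 (SE 0.29, adjusted p = 4.68e-08) in IT and 2.03 (SE 0.29, adjusted p = 3.54e-06) in TS. In IT the S3 arrays had read -0.18, 0.52 and -0.35, and the change between S3 and S4 was 2.31 (SE 0.29, adjusted p = 4.78e-07). At S4 RG and TS differed by -0.38 (adjusted p = 0.435), with overlap between the arrays.

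**Figure D4:**
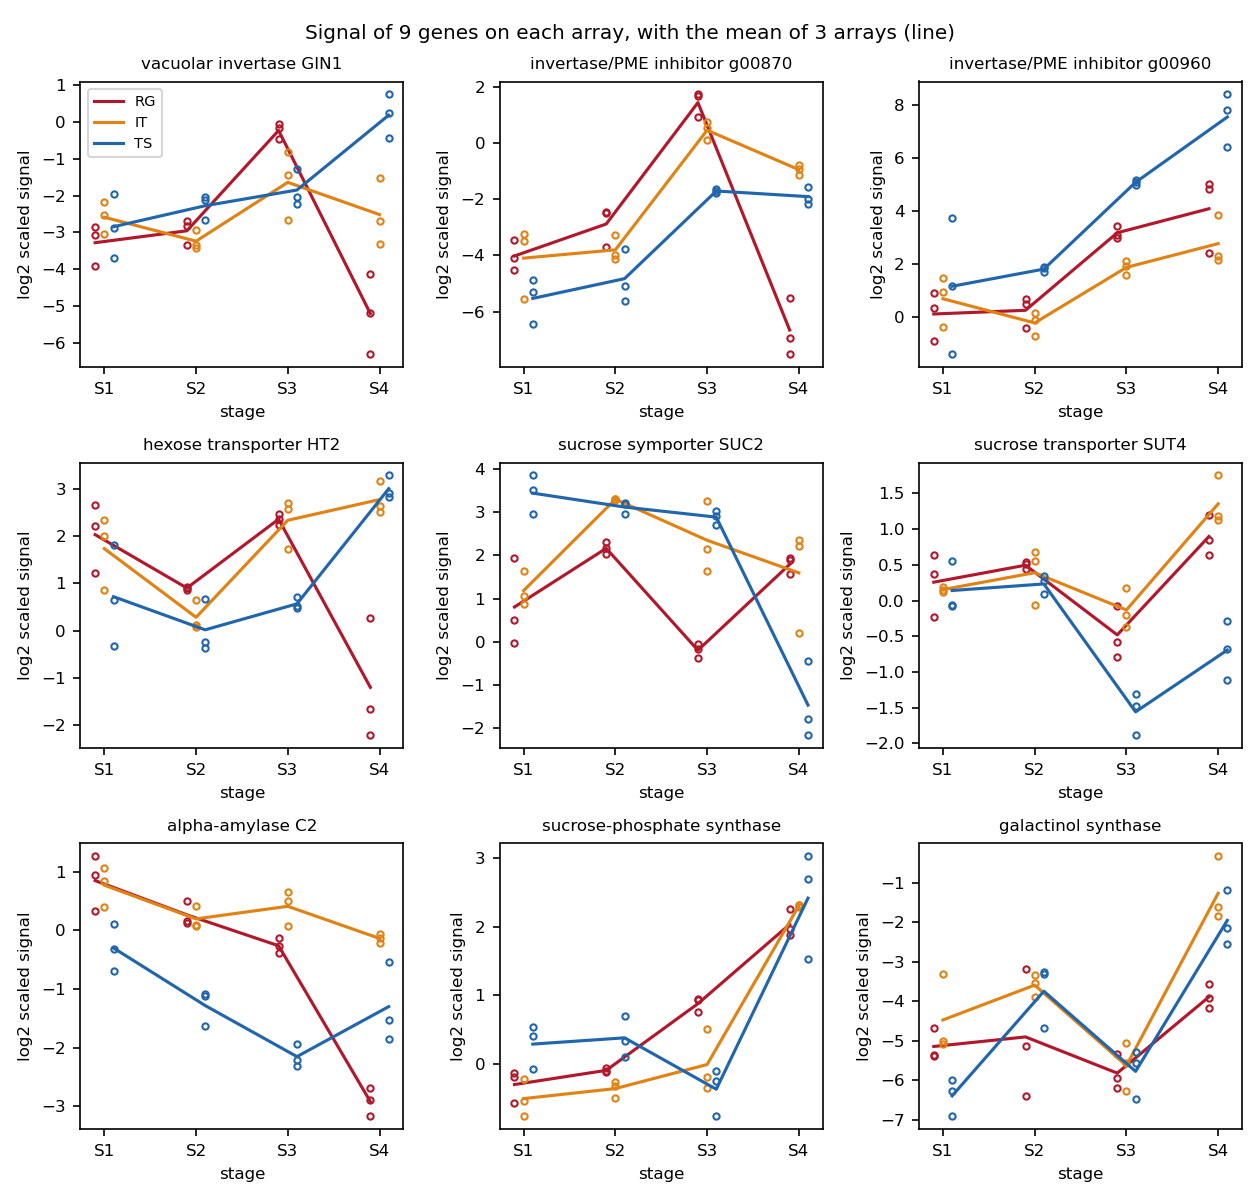
Scaled signal (log2) of 9 genes by stage, for RG, IT and TS; open circles are single arrays and lines join the means of 3 arrays. GIN1, the inhibitor g00870, HT2 and alpha-amylase end lowest in RG at S4, SUC2 and SUT4 end lowest in TS, and sucrose-phosphate synthase ends near 2 in all 3 varieties.

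Among the transporters, HT2 (GSVIVT01009024001, VIT_18s0001g05570), a hexose transporter, split the varieties at veraison. HT2 averaged 2.04, 0.90, 2.36 and -1.21 in RG, 1.74, 0.28, 2.34 and 2.78 in IT, against 0.72, 0.016, 0.57 and 3.01 in TS from S1 to S4 (SD 0.034 to 1.30, n = 3 arrays each). Its S4 arrays read -2.22, -1.65 and 0.26 in RG and 2.65, 2.51 and 3.18 in IT, against 2.92, 2.83 and 3.29 in TS. The RG arrays were all below the others, the third of them least so. RG minus TS was -4.22 (SE 0.51, adjusted p = 6.66e-07), with -3.03 to -5.13 on the shared slides, and IT minus TS was -0.23 (adjusted p = 0.754).

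At S2, HT2 read 0.94, 0.87 and 0.91 in RG and 0.086, 0.64 and 0.12 in IT, against -0.24, -0.37 and 0.66 in TS. The change to S4 was -2.11 (SE 0.51, adjusted p = 0.00175) in RG, 2.50 (SE 0.51, adjusted p = 0.000336) in IT and 3.0 (SE 0.51, adjusted p = 4.97e-05) in TS, a fall in RG and a rise in both others. The fall in RG was not called with the replicate number as a block (adjusted p = 0.062). The difference between the RG and TS changes was -5.10 (SE 0.72, adjusted p = 2.28e-05). In IT the rise was in place at S3, where the arrays read 2.71, 2.58 and 1.73 and the change from S2 was 2.06 (SE 0.51, adjusted p = 0.00987), not called without the first (adjusted p = 0.052) or the second S3 array (0.054).

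SUC2 (GSVIVT01034886001, VIT_18s0076g00250), a sucrose-proton symporter, was higher in both seeded varieties at S4. SUC2 averaged 0.81, 2.17, -0.19 and 1.79 in RG, 1.19, 3.30, 2.35 and 1.60 in IT, against 3.44, 3.12, 2.89 and -1.46 in TS from S1 to S4 (SD 0.017 to 1.20, n = 3 arrays each). Readings at S4 were 1.57, 1.88 and 1.93 in RG and 2.35, 2.23 and 0.21 in IT, against -2.16, -1.78 and -0.45 in TS. The TS arrays were lowest, without overlap, and the third IT array was well below its 2 replicates. The difference was 3.26 (SE 0.49, adjusted p = 1.51e-05) for RG minus TS and 3.06 (SE 0.49, adjusted p = 2.3e-05) for IT minus TS.

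In TS SUC2 had read 3.20, 2.96 and 3.19 at S2, and the fall to S4 was a change of -4.58 (SE 0.49, adjusted p = 5.21e-08). In IT it had read 3.30, 3.28 and 3.32 and changed by -1.70 (SE 0.49, adjusted p = 0.00719), a call lost without the third S4 array (-1.01, adjusted p = 0.11). In RG the S2 arrays read 2.02, 2.17 and 2.30 and the change was -0.37 (adjusted p = 0.63). RG and TS differed in the change by 4.21 (SE 0.69, adjusted p = 0.000134). At S3 SUC2 read -0.36, -0.039 and -0.17 in RG and 2.71, 2.92 and 3.04 in TS, so that RG was below TS by a difference of -3.08, given as a description, with the opposite sign to the one at S4.

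SUT4 (GSVIVT01009254001, VIT_18s0001g08220), a sucrose transporter, showed smaller changes of the same sign at S4. SUT4 averaged 0.26, 0.50, -0.48 and 0.90 in RG, 0.15, 0.39, -0.13 and 1.35 in IT, against 0.14, 0.23, -1.56 and -0.69 in TS from S1 to S4 (SD 0.034 to 0.44, n = 3 arrays each). At S4 it read 0.64, 0.85 and 1.20 in RG and 1.18, 1.13 and 1.75 in IT, against -0.68, -0.28 and -1.11 in TS. Only the TS arrays were below 0. RG minus TS was 1.59 (SE 0.27, adjusted p = 8.49e-05) and IT minus TS 2.05 (SE 0.27, adjusted p = 1.66e-06). The S2 arrays of RG read 0.44, 0.54 and 0.51 and those of TS 0.34, 0.27 and 0.089. The difference between RG and TS in the change to S4 was 1.33 (SE 0.38, adjusted p = 0.0233), and it was not called without the first S2 array of RG or of TS or the third S4 array of RG or of TS (adjusted p 0.052 to 0.066).

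The nucleotide-sugar transporter (GSVIVT01002467001, VIT_00s0742g00030), of a family that carries activated sugars into the Golgi, was lowest at S4 in each variety. Nucleotide-sugar transporter averaged 0.33, 0.26, -0.27 and -0.60 in RG, 0.23, 0.26, -0.58 and -1.56 in IT, against 0.21, -0.33, -1.44 and -1.90 in TS from S1 to S4 (SD 0.10 to 0.59, n = 3 arrays each). In IT it read -1.46, -1.54 and -1.67 at S4 and 0.068, 0.37 and 0.33 at S2, a change of -1.81 (SE 0.28, adjusted p = 1.17e-05), and in TS the change was -1.57 (SE 0.28, adjusted p = 9.13e-05). In RG it was -0.86 (adjusted p = 0.0174) and not called. At S4 RG exceeded TS by 1.30 (SE 0.28, adjusted p = 0.00122).

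The other 7 transporters are related to ERD6, named in Arabidopsis for its early response to dehydration, a family of monosaccharide carriers of which several sit in the vacuolar membrane. Of these, 4 have neighbouring V1 identifiers: ERD6-like 3 g00250 (GSVIVT01022030001, VIT_14s0030g00250), ERD6-like 3 g00260 (GSVIVT01022029001, VIT_14s0030g00260), ERD6 (GSVIVT01022028001, VIT_14s0030g00280) and ERD6-like 3 g00300 (GSVIVT01022026001, VIT_14s0030g00300). Probe sequences were not used here, so shared signal between near-identical copies was not tested and the members are not independent of each other.

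ERD6-like 3 g00250 averaged 0.28, 0.46, 0.97 and -1.82 in RG, 0.041, -0.40, -0.14 and -1.83 in IT, against -0.31, -0.46, -0.067 and -3.06 in TS from S1 to S4 (SD 0.082 to 0.70, n = 3 arrays each). ERD6-like 3 g00260 averaged -1.36, -1.45, -0.83 and -3.87 in RG, -1.06, -1.29, -0.57 and -2.17 in IT, against -3.22, -2.18, -2.79 and -4.82 in TS from S1 to S4 (SD 0.12 to 1.19, n = 3 arrays each). Both were lowest at S4 in each variety. ERD6 g00280 averaged -0.67, -0.77, 0.023 and -3.47 in RG, -0.44, -0.82, -0.32 and -1.79 in IT, against -1.42, -1.53, -1.43 and -4.17 in TS from S1 to S4 (SD 0.07 to 0.52, n = 3 arrays each). ERD6-like 3 g00300 averaged -0.88, -0.90, -0.16 and -3.66 in RG, -0.57, -1.15, -0.52 and -1.98 in IT, against -1.82, -1.84, -1.81 and -4.72 in TS from S1 to S4 (SD 0.12 to 0.73, n = 3 arrays each). These too were lowest at S4. The means of all 4 were lower in TS than in RG at every stage, but at S3 the list had chosen them for that. At the other stages the difference was called only for g00260 at S1 and for g00250 and g00300 at S4.

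From S2 to S4 the 4 genes fell in RG, with changes of -2.28, -2.42, -2.70 and -2.76 in the order of their identifiers. In TS the changes were -2.60, -2.64, -2.65 and -2.88. All 8 changes were called, with adjusted p of at most 2.84e-05, and the tests of the difference between RG and TS in these changes gave adjusted p of at least 0.824. In IT only g00250 passed between S2 and S4 (-1.43, SE 0.35, adjusted p = 0.0021), while S4 minus S3 was -1.69, -1.60, -1.47 and -1.46, each called. For g00250 the IT arrays read -1.98, -2.04 and -1.48 at S4, against 0.27, -0.33 and -0.37 at S3. With the slide as a block the last of the 4, g00300, missed the threshold in IT (adjusted p = 0.053).

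At S4 the 4 genes were higher in IT than in TS by 1.23, 2.65, 2.38 and 2.74, all called. In RG the excess over TS was 1.24, 0.96, 0.70 and 1.07, and only the first and the last were called. Neither call was stable to leaving out an array. That of g00250 was lost without the first RG (adjusted p = 0.056) or the third TS array (0.085), and that of g00300 without the first (0.065) or second RG (0.076) or the first TS array (0.17). In IT that of g00250 was lost without the third TS array (0.94, adjusted p = 0.051). For g00300 the arrays at S4 read -3.53, -3.41 and -4.03 in RG and -2.09, -2.17 and -1.69 in IT, against -5.45, -4.0 and -4.72 in TS. The IT arrays were apart from both others, while RG and TS overlapped. At S1, g00260 read -1.48, -1.67 and -0.94 in RG and -4.42, -3.20 and -2.05 in TS, a difference of 1.86 (SE 0.41, adjusted p = 0.00468) that was not called with the replicate number as a block (adjusted p = 0.11) or without the first TS array (1.26, adjusted p = 0.054).

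The remaining 3 are ERD6-like 16 genes with close identifiers, g02170 (GSVIVT01017836001, VIT_05s0020g02170), g02250 (GSVIVT01017844001, VIT_05s0020g02250) and g02260 (GSVIVT01017845001, VIT_05s0020g02260). They gave dim signals, on which the spread between arrays was large. ERD6-like 16 g02170 averaged -4.91, -6.53, -2.15 and -2.15 in RG, -5.07, -4.84, -5.86 and -3.71 in IT, against -6.38, -3.82, -5.60 and -3.55 in TS from S1 to S4 (SD 0.26 to 2.38, n = 3 arrays each). ERD6-like 16 g02250 averaged -5.36, -5.70, -2.94 and -5.19 in RG, -4.24, -4.08, -5.08 and -4.16 in IT, against -5.61, -5.86, -5.77 and -5.04 in TS from S1 to S4 (SD 0.18 to 0.93, n = 3 arrays each). ERD6-like 16 g02260 averaged -6.81, -7.05, -3.16 and -7.54 in RG, -5.42, -4.79, -4.71 and -7.44 in IT, against -7.42, -7.20, -8.34 and -7.20 in TS from S1 to S4 (SD 0.17 to 2.24, n = 3 arrays each). At S3 all 3 were brighter in RG than in TS, which is how the pea-size list had chosen them, with 3.44, 2.83 and 5.18 for RG minus TS. The arrays of g02260 read -3.33, -2.99 and -3.17 in RG and -8.10, -8.66 and -8.26 in TS, where none was well above background, so RG was at least 11.7-fold higher. Those of g02170 read -2.69, -2.25 and -1.52 in RG and -5.0, -5.87 and -5.92 in TS. Over all probes 23.6% passed both limits in this contrast (9.49% higher and 14.1% lower in RG), from which nothing is read here. The smallest difference among the genes of the pea-size list was 1.03, for ERD6-like 3 g00250.

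The S2 and S4 arrays were not used by that list. Between S2 and S4, g02170 read -1.39, -2.58 and -2.50 in RG at S4, against -6.95, -7.10 and -5.53 at S2, a rise of 4.37 (SE 0.93, adjusted p = 0.000468). In TS it read -4.28, -4.81 and -1.55 at S4 and -4.66, -4.99 and -1.80 at S2, which overlap. The difference between RG and TS in that change, 4.10 (SE 1.32, adjusted p = 0.0429), was not called without the first or second S2 array of RG, any S4 array of RG, the third S2 array of TS or the first or second S4 array of TS, with adjusted p 0.05 to 0.14. In IT g02260 read -7.51, -7.09 and -7.71 at S4, not well above background, against -4.91, -4.79 and -4.43 at S3 and -4.46, -5.31 and -4.59 at S2. It was lower at S4 by at least 2.5-fold than at S3 (adjusted p = 0.0283) and 2.36-fold than at S2 (adjusted p = 0.0282). With normexp both changes were inside the limit (-0.34 and -0.23). Neither was called without the first or the third S4 array, nor the change from S3 without any S3 array, nor that from S2 without the first or the third S2 array (adjusted p 0.054 to 0.082).

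**Figure D5:**
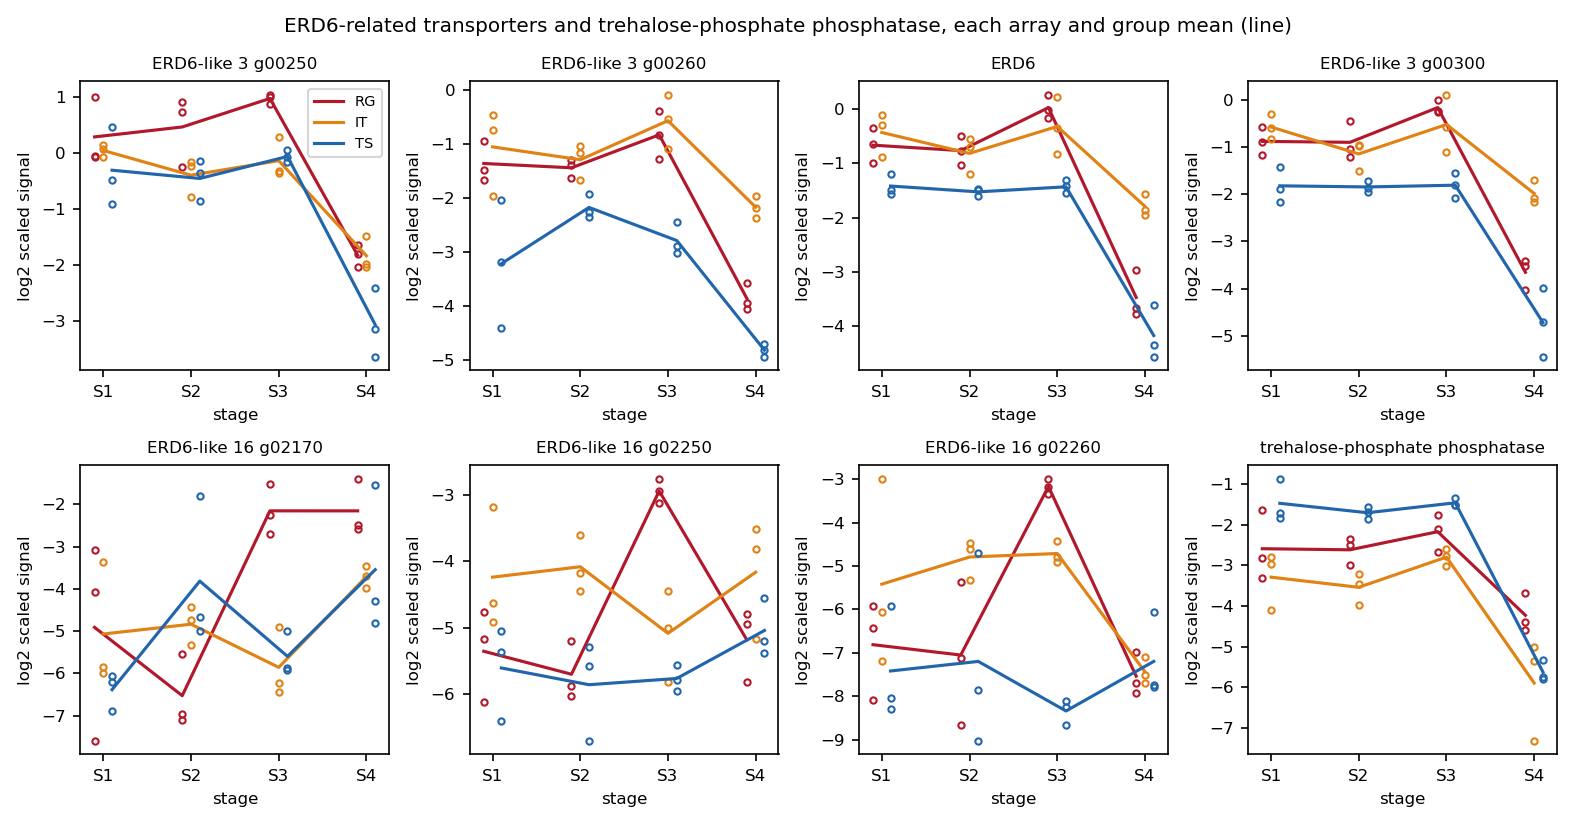
Scaled signal (log2) by stage of the 7 ERD6-related transporters and of trehalose-phosphate phosphatase, for RG, IT and TS; open circles are single arrays and lines join the means of 3 arrays. The first 4 genes drop at S4 in all 3 varieties, ERD6-like 16 g02250 and g02260 stand highest in RG at S3, and the phosphatase is lowest at S4 in each variety.

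Of the starch genes, the alpha-amylase C2 precursor (GSVIVT01032922001, VIT_14s0068g00420), of a family that breaks starch, was the one that separated RG and TS at more than 1 stage. Alpha-amylase averaged 0.85, 0.26, -0.26 and -2.92 in RG, 0.77, 0.20, 0.41 and -0.14 in IT, against -0.30, -1.28, -2.15 and -1.30 in TS from S1 to S4 (SD 0.076 to 0.68, n = 3 arrays each). At S1 it read 0.33, 1.26 and 0.95 in RG and -0.69, 0.11 and -0.32 in TS, and at S2 0.50, 0.16 and 0.13 in RG and -1.09, -1.64 and -1.12 in TS. RG was higher without overlap at both stages, by 1.15 (SE 0.29, adjusted p = 0.0134) and 1.54 (SE 0.29, adjusted p = 0.00105). With the replicate number as a block the first had an adjusted p of 0.073, and it was not called without the second (0.94, adjusted p = 0.11) or the third RG array (1.1, 0.055) or the first TS array (0.95, 0.08). With the slide as a block the second had an adjusted p of 0.28.

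At S4 the gene was lower in RG than in TS. Alpha-amylase read -2.69, -3.17 and -2.90 in RG and -0.13, -0.22 and -0.068 in IT, against -1.84, -1.52 and -0.53 in TS. RG was lowest and IT highest, with no overlap between varieties. RG minus TS was -1.62 (SE 0.29, adjusted p = 0.000134), on the shared slides -0.85 to -2.36, and IT minus TS was 1.16 (SE 0.29, adjusted p = 0.00264), the last within the limit without the first TS array (0.89). From post-bloom to veraison the gene fell in RG, a change of -3.18 (SE 0.29, adjusted p = 1.22e-09), while in TS the change was -0.018 (adjusted p = 0.974) and in IT -0.33 (adjusted p = 0.416). The difference between RG and TS in the change was -3.16 (SE 0.41, adjusted p = 5.44e-06).

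Starch synthase (GSVIVT01019680001, VIT_02s0025g02790), which lengthens the glucan chains of starch, varied by less. Starch synthase averaged 1.83, 1.80, 2.43 and 2.43 in RG, 1.32, 1.14, 1.91 and 1.66 in IT, against 2.30, 1.66, 1.39 and 2.88 in TS from S1 to S4 (SD 0.084 to 0.60, n = 3 arrays each). In TS it rose between S2 and S4 by 1.23 (SE 0.29, adjusted p = 0.00199), and at S4 IT minus TS was -1.22 (SE 0.29, adjusted p = 0.00213), within the limit without the first IT array (-0.97). RG minus TS at S4 was -0.46 (adjusted p = 0.339).

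In raffinose synthesis, galactinol synthase (GSVIVT01013763001, VIT_01s0127g00470), the enzyme of the first step, was highest at S4 in each variety. Galactinol synthase averaged -5.15, -4.91, -5.82 and -3.89 in RG, -4.48, -3.59, -5.63 and -1.27 in IT, against -6.40, -3.75, -5.78 and -1.95 in TS from S1 to S4 (SD 0.28 to 1.62, n = 3 arrays each). In IT it read -1.84, -1.63 and -0.34 at S4, against -6.27, -5.56 and -5.07 at S3 and -3.54, -3.89 and -3.34 at S2. The S4 arrays were above all others of that variety, and the change from S3 was 4.37 (SE 0.60, adjusted p = 2.53e-06), on the shared slides 3.93 to 4.73. Between S2 and S3 the change had been -2.04 (SE 0.60, adjusted p = 0.0282), a call lost with normexp (-0.40, adjusted p = 0.33) and without the first or the third S2 array or the first or second S3 array (adjusted p 0.083 to 0.14). At S4 it read -3.92, -3.58 and -4.17 in RG and -1.18, -2.14 and -2.54 in TS, a difference of -1.94 (SE 0.60, adjusted p = 0.0222) that was not called with quantile normalization (adjusted p = 0.063) or without the first (0.062) or the third RG array (0.069) or the first TS array (0.13). In TS S4 exceeded S2 by 1.80 (SE 0.60, adjusted p = 0.0243), a call lost without the third S2 array (1.34, adjusted p = 0.13) or the first S4 array (1.41, 0.13).

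Raffinose synthase (GSVIVT01007681001, VIT_17s0000g08960) was dim, well above background on 25 arrays. Raffinose synthase averaged -4.85, -5.76, -4.84 and -4.21 in RG, -2.91, -3.82, -3.48 and -3.40 in IT, against -5.01, -5.87, -6.52 and -6.08 in TS from S1 to S4 (SD 0.22 to 1.74, n = 3 arrays each). In TS no array of S3 or S4 stood well above background. IT was at least 5.97-fold higher than TS at S4 (adjusted p = 0.00815). With normexp that difference was 0.60 on the log2 scale, inside the limit. RG minus TS was 1.87 (adjusted p = 0.0892).

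Trehalose-phosphate phosphatase (GSVIVT01028707001, VIT_16s0050g02600) was lowest at veraison in each variety. At that stage it stood well above background on 3 of 3 arrays in RG, 2 of 3 in IT and 1 of 3 in TS. Trehalose-phosphate phosphatase averaged -2.59, -2.62, -2.17 and -4.23 in RG, -3.29, -3.54, -2.80 and -5.89 in IT, against -1.48, -1.71, -1.47 and -5.62 in TS from S1 to S4 (SD 0.10 to 1.24, n = 3 arrays each). In IT it read -7.31, -5.36 and -5.0 at S4, against -2.60, -2.78 and -3.02 at S3, a change of -3.09 (SE 0.46, adjusted p = 7.37e-06). At S4 RG read -4.59, -3.69 and -4.40 and TS -5.78, -5.33 and -5.75, without overlap, and RG minus TS was 1.39 (SE 0.46, adjusted p = 0.0317). That call was lost without the second RG array (1.12, adjusted p = 0.15) or without the first (0.093) or the third TS array (0.078), and with normexp the difference was 0.36 (adjusted p = 0.17).

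Trehalose-phosphate synthase (GSVIVT01014092001, VIT_19s0014g00300) was measured beside it. Trehalose-phosphate synthase averaged -3.53, -3.92, -3.84 and -4.95 in RG, -3.49, -5.12, -5.16 and -3.46 in IT, against -4.63, -4.84, -4.18 and -4.38 in TS from S1 to S4 (SD 0.024 to 0.89, n = 3 arrays each). In IT it read -3.17, -2.83 and -4.36 at S4, against -4.75, -4.54 and -6.18 at S3 and -5.13, -4.85 and -5.36 at S2. It rose by 1.70 (SE 0.41, adjusted p = 0.00225) from S3 and 1.66 (SE 0.41, adjusted p = 0.00231) from S2, while S4 minus S2 was -1.03 in RG (adjusted p = 0.0539) and 0.46 in TS (adjusted p = 0.452). In IT the phosphatase thus fell between S3 and S4 where the synthase rose. With normexp neither passed, since the fall was -0.79 and the rise from S3 was 0.51, both inside the limit, as was the rise from S2 (0.61).

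Phosphofructokinases add a phosphate to fructose 6-phosphate, 3 of the 6 with pyrophosphate in place of ATP. Of the 30 genes, the largest excess of IT over TS at S4 was that of a beta subunit of the pyrophosphate-dependent enzyme, PPi-PFK beta 12s0059g01220 (GSVIVT01030491001, VIT_12s0059g01220). PPi-PFK beta 12s averaged -2.07, -1.97, -4.33 and -6.32 in RG, -1.21, -1.15, -0.59 and -1.07 in IT, against -1.45, -2.17, -6.28 and -5.25 in TS from S1 to S4 (SD 0.076 to 2.29, n = 3 arrays each). The arrays at S4 read -7.36, -7.90 and -3.69 in RG and -1.51, -0.95 and -0.75 in IT, against -5.72, -7.03 and -3.0 in TS. IT was above every array of both others, and the third array of RG and of TS was well above its replicates. IT minus TS was 4.18 (SE 0.95, adjusted p = 0.00121).

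At S2 this subunit read -2.79, -2.45 and -0.66 in RG and -2.91, -2.88 and -0.70 in TS. The fall to S4 was a change of -4.35 (SE 0.95, adjusted p = 0.000598) in RG and -3.08 (SE 0.95, adjusted p = 0.0137) in TS, without overlap in either. In IT the change was 0.08 (adjusted p = 0.966). In TS the call was lost without the third S2 array (-2.35, adjusted p = 0.087), the first S4 array (-2.85, 0.055) or the second (-2.19, 0.11), and only 1 of 3 S4 arrays stood well above background in RG and in TS.

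Another beta subunit, PPi-PFK beta 10s0116g00360 (GSVIVT01004820001, VIT_10s0116g00360), was well above background on all 36 arrays. PPi-PFK beta 10s averaged 2.41, 2.25, 3.24 and 1.40 in RG, 2.24, 1.76, 2.85 and 2.63 in IT, against 2.12, 1.90, 1.84 and 1.66 in TS from S1 to S4 (SD 0.065 to 0.58, n = 3 arrays each). It rose between S2 and S3 in IT by 1.08 (SE 0.26, adjusted p = 0.00759), within the limit without the first (0.88) or second S3 array (0.95). The third, PPi-PFK 18s0122g00510 (GSVIVT01013442001, VIT_18s0122g00510), averaged -1.25, -1.21, 0.048 and -0.87 in RG, -1.05, -1.44, -0.28 and -0.32 in IT, against -1.84, -1.72, -1.55 and -0.53 in TS from S1 to S4 (SD 0.16 to 0.90, n = 3 arrays each). It rose in TS between S2 and S4 by 1.18 (SE 0.45, adjusted p = 0.0444), not called with the replicate number as a block (adjusted p = 0.055) or without any S2 array or the first or second S4 array (0.063 to 0.20).

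Of the 3 others, PFK 04s0008g00520 (GSVIVT01035322001, VIT_04s0008g00520) averaged 0.31, 0.94, 3.40 and 1.19 in RG, -0.058, 0.70, 0.68 and 0.70 in IT, against 0.77, 1.94, 1.71 and 2.80 in TS from S1 to S4 (SD 0.11 to 0.97, n = 3 arrays each). Readings at veraison were 1.26, 1.74 and 0.56 in RG and 0.62, 0.61 and 0.86 in IT, against 3.39, 3.33 and 1.68 in TS. TS was above IT on every array, while RG and TS overlapped through the third TS array. Relative to TS, RG differed by -1.61 (SE 0.42, adjusted p = 0.00652) and IT by -2.10 (SE 0.42, adjusted p = 0.000354). The RG call was lost without the first (adjusted p = 0.053) or second TS array (0.051).

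PFK2 00s0780g00010 (GSVIVT01002583001, VIT_00s0780g00010) averaged 0.71, 2.20, 2.90 and 2.97 in RG, 0.063, 1.51, 1.87 and 2.25 in IT, against 1.91, 2.53, 2.39 and 1.87 in TS from S1 to S4 (SD 0.11 to 0.82, n = 3 arrays each). In IT it read 1.81, 1.35 and 1.38 at S2 and 0.16, 0.37 and -0.34 at S1, a rise of 1.45 (SE 0.38, adjusted p = 0.0128), the only call between these stages. With the slide as a block its adjusted p was 0.082, without the third S1 array 0.068 and without the first S2 array 0.075. At S4 RG exceeded TS by 1.1 (SE 0.38, adjusted p = 0.0381), a call lost with quantile normalization (0.97, adjusted p = 0.08) or without the first (0.097) or second RG array (0.14) or the third TS array (0.22).

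PFK 15s0045g01120 (GSVIVT01026761001, VIT_15s0045g01120) averaged 1.24, 0.94, 1.44 and 1.87 in RG, 0.30, 0.62, 0.79 and 0.87 in IT, against 0.90, 1.17, 1.45 and 1.47 in TS from S1 to S4 (SD 0.058 to 0.65, n = 3 arrays each). It was called in none of the comparisons tested by limma here, and at S4 RG minus TS was 0.41 (adjusted p = 0.358).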

How the data were processed

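Ovules and seeds of Italia, Red Globe and Thompson Seedless at S1 to S4 were measured on 36 one-colour Agilent arrays, 3 per variety and stage, grouped by their labels. The deposited files hold the intensity of each spot as the authors' scanner software, Feature Extraction 10.7.1.1, wrote it, with background subtracted and no normalization between arrays. Of 43803 spots, flagged outliers were left out, and the spots of a probe were averaged, which gave 26688 probes. A further 124 probes were left out, and 23068 passed the filter on dim probes.

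The values used here are log2 processed intensity, as deposited, minus the 75th percentile of the array. Means of the 12 groups were fitted with limma 3.58.1 in R 4.3.3 (24 residual degrees of freedom), and p-values were adjusted by Benjamini-Hochberg across the probes that passed. Calls needed an adjusted p below 0.05 and more than a 2-fold change. An exact permutation test of 3 against 3 arrays cannot go below p = 0.1 and was not used. The fit was tested on simulated data. Python 3.11.15 did the rest. The number of arrays limits the precision.

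The genes, lists and tests were chosen with earlier results of these data known. Members were matched by annotation text in the study's supplementary lists, from which no value was taken, and 1 matching probe is not reported here. Every member is named with its group means. Arrays are given one by one for at most 3 testable members that rose most and 3 that fell most among those called without overlap, and for the 3 largest differences at S3, with further arrays for context. Slides are those named in the scanner output. Replicate numbers paired the arrays where every same-numbered pair correlated above 0.1 in its deviations, as between RG and TS at S1 (0.804, 0.491 and 0.663), S2 (0.707, 0.581 and 0.773) and S4 (0.477, 0.555 and 0.682), and between S4 and S2 in RG (0.379, 0.403 and 0.52) and TS (0.433, 0.483 and 0.64). The alternatives were quantile normalization, another percentile, no scaling, normexp with an offset of 50, the authors' deposited matrix, no filter, a stricter filter, slides and replicate numbers as blocks, the arrays of the compared groups alone, the methods' t-test and leaving out each array.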

Additional observations from a re-analysis of the deposited data

Results flagged for a closer look

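In 6 genes the change between post-bloom and veraison differed between RG and TS by the test of the difference itself (limma, log2, RG minus TS, 3 arrays per group). It was -6.71 for the invertase/pectin methylesterase inhibitor g00870 (adjusted p = 1.4e-06), which fell in RG and rose in TS, or at least 5.99 below 0 with RG at S4 set to its bound, since no RG array of that stage stood well above background. It was -5.10 for the hexose transporter HT2 (adjusted p = 2.28e-05), which did the same. For alpha-amylase C2 it was -3.16 (adjusted p = 5.44e-06), with a fall in RG and no call in TS. It was 4.21 for the sucrose symporter SUC2 (adjusted p = 0.000134), which fell in TS. For ERD6-like 16 g02170 it was 4.10 (adjusted p = 0.0429), and for the sucrose transporter SUT4 it was 1.33 (adjusted p = 0.0233). With the slide as a block neither of these was called (0.12 and 0.18), and leaving out any of 8 single arrays ended the call of g02170 and any of 4 that of SUT4. At veraison VviAGL11 averaged 5.99 in RG and 1.83 in TS, the other 3 seed markers and 4 of 5 green-tissue markers had lower means in RG, and the part of these markers was not tested.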

How the results depend on the processing

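Counts of genes called that moved by over 1.5 times are given here. At S1, 2 genes called between RG and TS became 0 without scaling, with the compared arrays alone, with the slide as a block or with the methods' t-test after adjustment, 1 with probes well above background on all arrays or the plain t-test, and 4 (2 higher and 2 lower in RG) with slides as a random block. At S2, 2 became 0 without scaling, with the compared arrays, the slide block or the adjusted t-test, 1 with normexp, the strict filter or the t-test, and 4 (3 higher and 1 lower) with random slides. At S4, 15 became 5 without scaling, 8 with normexp, 6 with the compared arrays and 0 with the adjusted t-test. For IT against TS at S4, 14 became 9 without scaling, with normexp or with the t-test, and 2 with the adjusted t-test. Between S1 and S2, 0 became 1 in RG with normexp or random slides and in TS with random slides, and 1 became 0 in IT without scaling, with the slide block or the adjusted t-test. Between S2 and S4, 11 became 6 in RG with the strict filter or the adjusted t-test, and 15 became 3 in TS with the adjusted t-test. In IT, 5 between S2 and S3 became 1 without scaling, 3 with normexp or the strict filter and 0 with the adjusted t-test, and 11 between S3 and S4 became 6 with the strict filter and 2 with the adjusted t-test. The strict filter left only the 18 genes well above background on all arrays in the test, so its counts cover fewer genes. Of the 26 single-gene results that could be run with it, 0 lost the call. The cause of the other moves was not tested.

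With the replicate number as a block, which pairs the arrays between RG and TS and between S4 and S2 in RG and TS, 0 genes were called at S1 and 1 at S2, and the calls lost are named beside their genes. These fits used the compared arrays alone, which without a block gave 0 at both stages. Where the numbers did not pair the arrays, the block gave 5 for IT against TS at S4 and 0 for S2 against S1 in IT.

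Leaving out 1 array gave 0 to 3 at S1, 1 to 4 at S2 and 11 to 14 at S4 for RG against TS, 13 to 17 for IT against TS, 0 to 1 between S1 and S2 in each variety, 1 to 6 between S2 and S3 in IT, and 10 to 11 between S3 and S4. Between S2 and S4 it gave 11 to 14 in RG, 9 to 11 in IT and 12 to 15 in TS, and 4 to 6 for the difference between RG and TS. Of 923 alternatives for 50 results on single genes, 772 kept the call, 151 lost it and 0 reversed it. Without scaling the median of all probes lay at -1.08 for S4 against S2 in TS, -0.53 in RG and -0.56 in IT, and at -0.91 for S4 against S3 in IT. The slide could not be fitted as a block for IT against TS, nor for several stage changes, and the t-test was not run for the difference of changes. Dim genes, such as the ERD6-like 16 genes, have only bounds where no array was well above background.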

Other observations

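Among 22 further genes of starch turnover, oligosaccharides and sugar or polyol export, chosen by annotation in the same lists, 6 differed between RG and TS at veraison (limma), 1 higher and 5 lower in RG, against 16.9% of all probes. Nodulin MtN3 genes belong to the SWEET family of sugar carriers. One of them, VIT_01s0146g00260, averaged -2.62 ± 0.193 in RG and 3.72 ± 1.26 in TS (log2 scaled signal, SD, n = 3 arrays each), a difference of -6.34 (adjusted p = 3.25e-09), without overlap. VIT_14s0066g01420 was at least 8.61-fold higher in RG (adjusted p = 1.15e-06), since no TS array stood well above background. VIT_18s0001g15330 was lower in RG by a difference of -2.28 (adjusted p = 0.00315), with an SD of 2.1 between the RG arrays. A 1,4-alpha-D-glucan maltohydrolase, a beta-amylase, VIT_02s0012g00170, averaged -1.55 ± 0.184 in RG and 1.51 ± 0.327 in TS, a difference of -3.06 (adjusted p = 0.00703).

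Of these 22 genes, 8 were called in IT against TS at S4 and 11 between S3 and S4 in IT, against 29.2% and 24.7% of all probes. Between S2 and S4, 7 of 17 testable genes changed in RG, 8 in IT and 9 in TS, against 30.0%, 29.8% and 25.9% of all probes. The difference between RG and TS in that change was called for 5 of 17, all below 0, against 5.91% of all probes called below 0. Most of these genes were chosen by lists of differences, so nothing about the class is read from these shares.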
